A study of Mus musculus with 244 samples.

Results

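The nuclear genes of the respiratory chain were followed in single oocytes and single somatic cells of mouse ovarian follicles. Members were all rows of the count table whose symbol begins with Nduf, Uqcr, Cox and a digit, or Atp5. This rule, which uses no measured value, found 97 of 25122 genes. They fall into 43 genes of complex I (7 core subunits, 29 other subunits and 7 assembly factors), 8 of complex III, 29 of complex IV (11 subunits, 8 tissue isoforms and 10 assembly factors) and 17 of complex V. The last are 5 core subunits, 10 other subunits and 2 genes counted as assembly factors, Atp5s and Atp5sl, placed there by symbol.

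The respiratory chain sits in the inner mitochondrial membrane. Complex I takes electrons from NADH, complex III passes them from ubiquinol to cytochrome c, complex IV hands them to oxygen, and complex V, the ATP synthase, uses the proton gradient that these steps build up. Complexes I, III, IV and V are made of subunits from both genomes, and the genes described here are the nuclear ones, together with assembly factors that put the complexes together. Growing oocytes rely mainly on pyruvate and oxidative phosphorylation, whereas granulosa cells, the somatic cells of the follicle, are known for active glycolysis.

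Ovaries were taken from CD-1 mice (an outbred stock, with no engineered allele named) at postnatal day 6, and the follicles were freed by enzymes and staged by their form, with no other treatment named. Each library was 1 cell, made by SMART-Seq2, which copies polyadenylated RNA over its full length and has no molecular identifiers. The table holds 59 oocytes (13 from primordial, 19 from transitioning, 20 from primary and 7 from secondary follicles) and, in the same order of stages, 40, 47, 56 and 42 somatic cells. A primordial follicle has flat somatic cells around a resting oocyte, a transitioning follicle has some flat and some cuboidal cells, a primary follicle a full layer of cuboidal cells and a secondary follicle more than 1 layer. Ovaries of several animals were pooled and no animal is named for a cell, so each group counts as 1 sample and no test between groups was possible. Intervals given below are at 95% and cover counting error only, not PCR copies, animals or plates.

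The cells were processed on 6 library plates, and a gene had values for all cells of a plate or for none. Of the 97 members, 54 had values on 1 plate only and 20 on every plate, and plates 1 to 6 held 51, 28, 48, 36, 39 and 39 of them. Cells were therefore compared only within a plate, and levels of different plates were scaled separately. Plate 3 held somatic cells only. Plate 1 held 13 oocytes and 37 somatic cells of mixed stages. On plate 2, 8 oocytes, 7 of them primordial, met 32 somatic cells of primary follicles, so that type and stage cannot be told apart there. Plate 4 held 15 oocytes and 16 somatic cells, all of transitioning follicles. Plate 5 held 10 oocytes and 66 somatic cells of every stage but transitioning, and plate 6 held 13 oocytes, mostly primary, and 12 somatic cells, 11 of them secondary.

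The total per cell ranged from 5150.2 to 801258 counts, and oocytes were deeper than somatic cells by their medians on each plate with both types, most on plate 2 (504558 against 100363). Most cells carried the markers of their labelled type. The 17 oocyte markers took up 0.392% to 11.2% of the counts of an oocyte, and the 13 granulosa cell markers no more than 0.0508%. In somatic cells the granulosa markers had a median of 1.85% and the oocyte markers of 0.00801%, and all but 6 somatic cells had more of the former, but 42 cells carried over 0.1% of oocyte markers and in 17 cells 7 stroma markers exceeded the granulosa markers. The metadata give a second plate label. On plate 5 and on plate 6 all cells shared 1 such label, but on plates 1, 2 and 4 only 3 of 13, 1 of 8 and 5 of 15 oocytes carried that of the somatic cells. What this label stands for is not given, so for most oocytes of these 3 plates it cannot be told apart from cell type.

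Of the 97 members, 77 had a promoter in the RefSeq set for GRCm38.p6, a window of 250 bases before to 50 after each start, and 38 members had exons that overlap those of another gene. The 120 bases before the start are printed here for the 5 members that differed at least 2-fold in the same direction between oocytes and somatic cells on 3 or more plates, as given further down. Capitals mark the motif GCGCATGCG of NRF1, a factor known for activating nuclear respiratory genes, in Ndufa11 (on both strands, 1 base apart) and the motif TGACGTCA of CREB in Uqcrfs1. The sequences run 5′ to 3′ on the strand of the gene, at chr17:56717642-56717761 (plus strand), chr17:78937015-78937134 (plus strand), chr2:119662835-119662954 (minus strand), chr1:58586277-58586396 (plus strand) and chr13:30545317-30545436 (minus strand).
Ndufa11: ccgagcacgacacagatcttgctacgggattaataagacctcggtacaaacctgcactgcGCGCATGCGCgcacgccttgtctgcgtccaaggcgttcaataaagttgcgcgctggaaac
Ndufaf7: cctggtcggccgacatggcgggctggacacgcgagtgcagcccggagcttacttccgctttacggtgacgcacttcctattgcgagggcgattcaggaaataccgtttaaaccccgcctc
Ndufaf1: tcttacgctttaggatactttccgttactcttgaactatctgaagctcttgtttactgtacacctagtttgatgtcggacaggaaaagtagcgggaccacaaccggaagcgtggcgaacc
Ndufb3: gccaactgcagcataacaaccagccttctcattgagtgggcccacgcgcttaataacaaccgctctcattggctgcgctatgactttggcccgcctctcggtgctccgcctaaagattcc
Uqcrfs1: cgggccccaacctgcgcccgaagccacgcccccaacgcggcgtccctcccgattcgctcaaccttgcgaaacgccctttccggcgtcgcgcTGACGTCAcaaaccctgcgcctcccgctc

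Over the 300 bases, read on both strands, the NRF1 letters were found in 12.99% of the 77 member genes with a promoter and in 1.95% of all 27025 genes. YY1 letters (AAGATGGC) were found in 14.3% against 3.19%, those of ETS factors such as GABPA (CCGGAAGT) in 11.7% against 4.31%, and CREB letters in 5.19% against 2.03%. SP1 letters (GGGCGGG) were in 35.1% against 27.9% and the TATA letters (TATAAA) in 10.4% against 15.7%. The median GC content was 58.3% in the windows of members and 52.8% in all windows. Over its 300 bases, Ndufa11 also holds the CREB letters found in Uqcrfs1. A match describes letters only, not binding.

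Oocytes did not differ from somatic cells in a single direction over the members: the balance changed with the plate. By pooled CPM (counts per 1e+06 counts), that is the counts of all the cells of a type summed, members had a median log2 ratio of oocytes to somatic cells of -0.69 on plate 1, 0.58 on plate 2, 0.97 on plate 4, -0.34 on plate 5 and -0.68 on plate 6. The same median over all genes was -0.33, -2.0, -1.31, -0.84 and -1.15. Relative to all genes, members stood higher on plates 2, 4, 5 and 6 and lower on plate 1. These ratios pool the stages of a type, and within a stage the order could differ. On plate 1 the medians of members and of all genes were 0.36 and 0.03 in primordial and -0.91 and -0.38 in primary follicles. On plate 5 they were -1.29 and -1.14 in primary and -1.25 and -1.29 in secondary follicles. On plate 6 the member median lay above 0 with the scaling factors of edgeR (TMM, 0.15) or DESeq2 (median of ratios, 0.30), which shift all log2 ratios there by 0.82 and 0.97. Genes entered where the mean of the 2 CPM values was at least 10, which 44 of 51, 22 of 28, 30 of 36, 33 of 39 and 32 of 39 members did, 1 or 2 of them on each plate only through the type in which they were higher.

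A member was called higher or lower where the log2 ratio was at least 1 in size. On plate 1, 4 members were higher and 17 lower in oocytes, beside 25.9% and 37.9% of all genes. On plate 2, 8 were higher and 1 lower (21.5% and 59.1% of all genes). On plate 4 the counts were 15 higher and 3 lower (23.1% and 53.7%). On plate 5, 1 was higher and 10 were lower (23.3% and 48%), and on plate 6, 1 was higher and 15 were lower (24.1% and 51.7%). On plates 2 and 4 the balance of the members was thus the reverse of that of all genes.

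**Figure D1:**
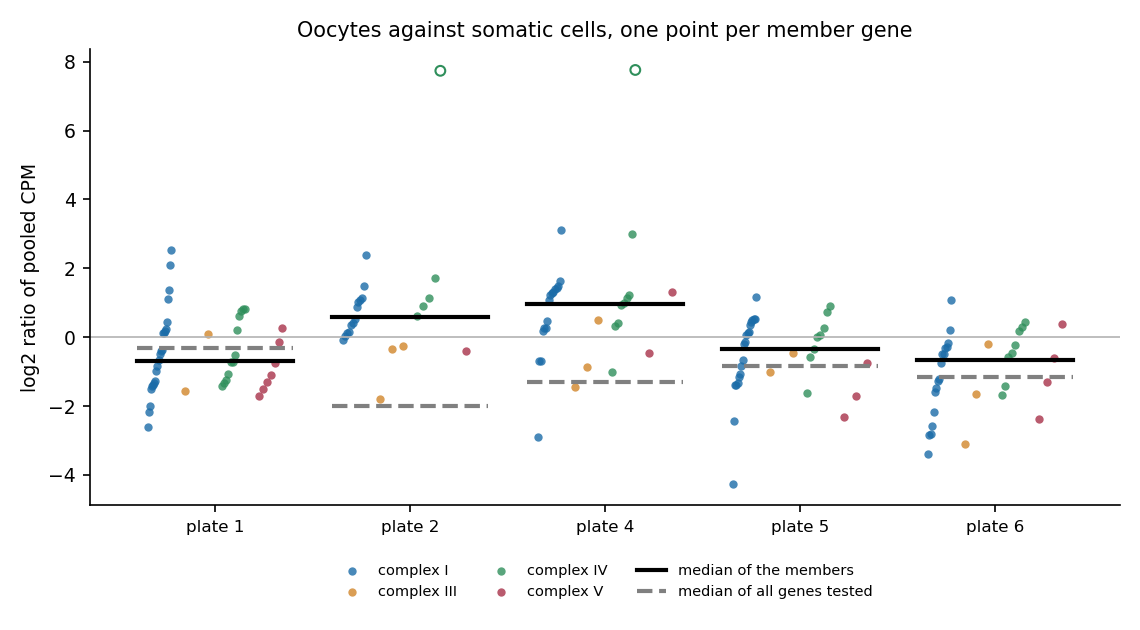
Each point is 1 member, plotted by plate (horizontal axis) against the log2 ratio of pooled CPM in oocytes to somatic cells (vertical axis), coloured by complex; open circles are lower bounds, solid bars the member median and dashed bars the median of all genes. The member medians lie at -0.69, 0.58, 0.97, -0.34 and -0.68, and the median of all genes lies below them on every plate except plate 1. The stages of a type are pooled.

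The share of a cell's counts on the members, which weighs each cell alike, overlapped between the types on every plate. On plate 1 the 13 oocytes ranged from 0.726% to 1.599% (median 1.45%) and the 37 somatic cells from 0.385% to 3.72% (median 1.302%). On plate 2 the 8 oocytes spread from 0.222% to 5.49% (median 0.893%) around somatic cells with a median of 0.603%. Primordial oocytes 6 and 9 there had 5.49% and 2.63%, and primordial oocytes 10 and 11 had 0.222% and 0.258%. On plate 4 the oocytes ranged from 0.279% to 3.26% (median 0.683%) and the somatic cells from 0.297% to 0.795% (median 0.549%). The oocytes were thus the more variable cells on plates 2 and 4. On plate 5 the oocytes had a median of 0.360% and the somatic cells of 0.4997%. Plate 6 gave medians of 0.426% (0.214% to 0.695%) and 0.735% (0.555% to 1.01%), and only the upper end of the oocytes reached into the somatic cells.

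The second plate label moved with these shares. On plate 4, the 5 oocytes with the label of the somatic cells had 0.279% to 0.683% of counts on members (median 0.420%), and the other 10 oocytes 0.399% to 3.26% (median 1.17%). With those 5 oocytes alone, the median log2 ratio of the members on plate 4 was -0.23 in place of 0.97. On plate 1, the 3 oocytes with the label of the somatic cells had 0.726% to 1.16% and the other 10 had 1.299% to 1.599%. By pooled CPM, the positive member median on plate 4 was thus not seen with the oocytes of the same label alone. The median of all genes with those 5 oocytes was not computed. Depth differed with the label as well. Oocytes with the label of the somatic cells and the others had median totals of 285800 and 151900 counts on plate 4. On plate 1 these were 584300 and 87610. The part of the label or of depth was not tested further.

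**Figure D2:**
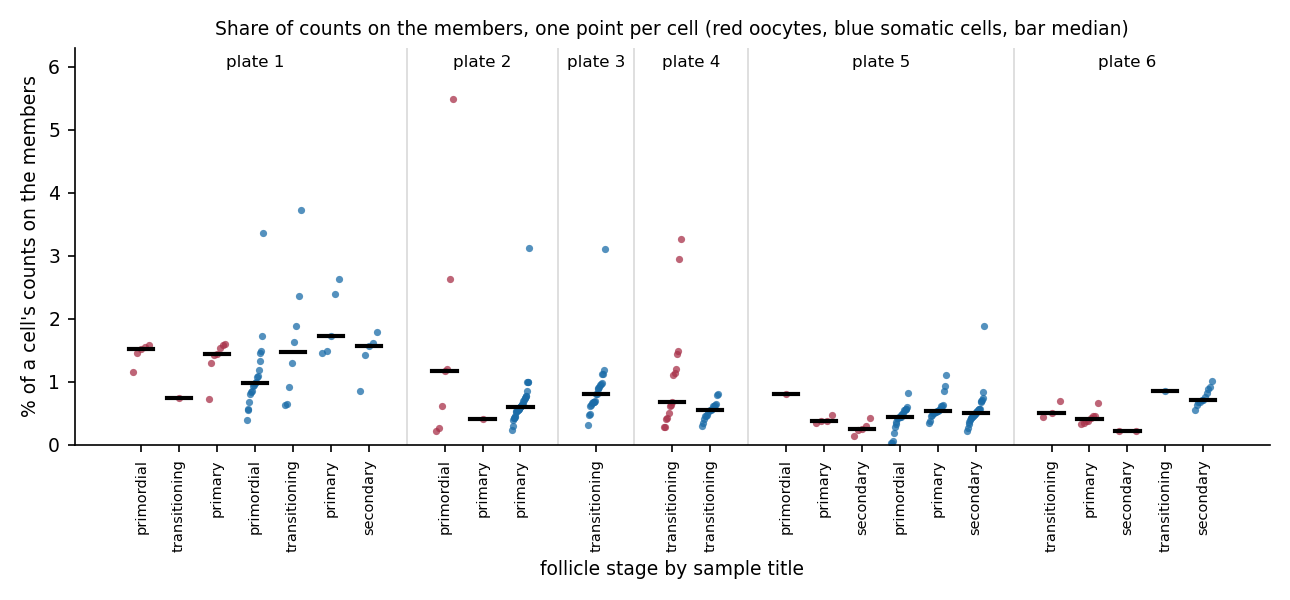
Each point is 1 cell, and its height is the percent of its counts on the members listed on its plate; oocytes are red, somatic cells blue, and black bars are medians per stage. Plates list different members, so heights compare only within a plate; oocytes reach 5.49% on plate 2 and 3.26% on plate 4, whereas on plate 6 they lie between 0.214% and 0.695%.

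The complexes did not follow the same course. Complex III was the group with a median below 0 on all 5 plates, at -0.74, -0.35, -0.88, -0.73 and -1.66, from 2 or 3 members that passed the filter on a plate. The median of all genes was below 0 on all 5 plates as well. Complex III lay above it on plates 2, 4 and 5 and below it on plates 1 and 6. Complex V had medians of -1.09 (7 members), -0.41 (1), 0.43 (2), -1.72 (3) and -0.95 (4). The 1 member of plate 2 was Atp5s, which is not a subunit, and the 7 of plate 1 include Atp5sl, which is not one either. Complex I was higher in oocytes on plates 2 and 4 (0.54 and 1.16) and lower on plates 1, 5 and 6 (-0.48, -0.17 and -1.21), and complex IV stood at -0.61, 1.14, 1.0, 0.04 and -0.35. With TMM or median-of-ratios factors the complex III median of plate 2 lay above 0, and so did that of plate 4 with the latter. These medians rest on different genes on different plates.

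The members with values on every plate let the plates be read on the same genes. Of these 20, 14 passed the filter on all 5 plates with both types. Their medians were -0.78, 0.75, 0.97, -0.11 and -0.29 on plates 1, 2, 4, 5 and 6, with 1, 5, 7, 1 and 1 higher and 5, 1, 0, 3 and 5 lower. The change of direction between plates was thus also seen on a fixed set of genes. The set is mainly complex I, with Cox5a, Cox6a1, Cox8a and Cox14 for complex IV and Uqcrfs1 for complex III.

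Cells of the same stage could be compared on 3 plates. On plate 1, members were higher in primordial oocytes than in primordial somatic cells by their median (0.36, 19 higher and 7 lower of 44, with all genes at 0.03 and 38.6% higher and 37.5% lower), whereas in primary follicles they were lower (-0.91, 8 higher and 18 lower of 44, with all genes at -0.38 and 31.1% higher and 39.8% lower). On plate 5, the medians were -1.29 in primary follicles (2 higher and 17 lower of 32) and -1.25 in secondary follicles (1 higher and 18 lower of 30), with all genes at -1.14 and -1.29. Over all genes 25.2% and 20.0% were higher and 53.1% and 56.2% lower there. The counts of lower members thus lay near the background, and those of higher members below it. The sign on plate 1 thus differed between its stages, with 5 oocytes and 19 somatic cells in the first comparison and 7 and 5 in the second.

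Uqcrfs1, the Rieske iron-sulfur subunit through which complex III passes electrons on, was lower in oocytes on all 5 plates by pooled CPM, and on plate 4 slightly higher (0.09) with median-of-ratios factors. The gene lies at chr13:30540308-30545362 on the minus strand (GRCm38). It stood at 128.6 against 381 on plate 1, 311 against 1080 on plate 2, 343 against 629.8 on plate 4, 220.1 against 439 on plate 5 and 210.7 against 664 on plate 6. The log2 ratios were -1.57 (-1.72 to -1.42), -1.80 (-1.89 to -1.70), -0.88 (-0.98 to -0.77), -0.996 (-1.25 to -0.75) and -1.66 (-1.93 to -1.39). On plates 2 and 4 the ratio lay above the median of all genes, and on plates 1, 5 and 6 below it. On plate 6 the 13 oocytes had 23.8 to 443 CPM (median 204.6) and the 12 somatic cells 187.5 to 1644 (median 591), so that the ranges overlapped in part. On plate 1 the order of the median cells was the reverse of the pooled one, 183.4 CPM in oocytes and 109.9 in somatic cells, as 19 of 37 somatic cells had any reads of it. Within a stage, it was lower in oocytes of primordial (-0.90) and primary (-1.12) follicles on plate 1 and of primary (-1.499) and secondary (-1.87) follicles on plate 5.

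Ndufb3 (chr1:58586384-58595964, plus strand), a small subunit of the membrane arm of complex I, was lower in oocytes by 2-fold or more on plates 1, 5 and 6 and level on plate 2. Its pooled CPM was 29.04 against 176.1 on plate 1, 235.4 against 228.2 on plate 2, 57.8 against 94.1 on plate 4, 19.1 against 49.7 on plate 5 and 6.72 against 70.3 on plate 6. The log2 ratios were -2.60, 0.04, -0.70, -1.38 and -3.39, and with TMM factors those of plates 2 and 4 were 1.24 and 0.06. On plate 6, 4 of 13 oocytes and 8 of 12 somatic cells had reads, and at a depth of 10000 counts per cell it was 1 of 13 and 6 of 12. The low values rest on few counts there, 6 in oocytes and 32 in somatic cells.

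Ndufaf1 (chr2:119655446-119662827, minus strand), a chaperone of the assembly of complex I, was lower in oocytes by pooled CPM on the 4 plates that list it, at 22.7 against 59.2 on plate 1, 14.9 against 111.7 on plate 4, 2.93 against 56.6 on plate 5 and 10.1 against 70.3 on plate 6. Its reads came from few somatic cells: 5 of 37, 6 of 16, 23 of 66 and 4 of 12, and the median somatic cell had none on any of these plates. More of the oocytes than of the somatic cells carried it on plate 1 (10 of 13) and plate 4 (10 of 15), but with all cells at 10000 counts it was 2 of 10 oocytes against 4 of 37 somatic cells on plate 1 and 2 of 14 against 5 of 16 on plate 4. On plate 1 the mean CPM of single cells gave a log2 ratio of 0.60 where the pooled value was -1.39. Its pooled direction there thus rests on how cells are weighed.

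Ndufa11 (chr17:56717767-56722141, plus strand), a subunit of the membrane arm of complex I, was higher in oocytes on plates 2, 4 and 5. Pooled CPM was 1513 against 539 on plate 2 (log2 ratio 1.49, 1.41 to 1.57), 530.0 against 219.3 on plate 4 (1.27) and 161.7 against 72.2 on plate 5 (1.16). It was 147.7 against 194.6 on plate 1 (-0.40) and 182.3 against 157.1 on plate 6 (0.21, -0.20 to 0.64). On plate 2 the oocytes ranged from 166.7 to 7333 CPM (median 814) and the somatic cells from 0 to 3348 (median 202.2), and on plate 5 from 27.1 to 335 (median 149.2) and from 0 to 401 (median 50.8). The ranges overlapped on every plate. Its exons overlap those of Vmac, and 17.01% of its values above 0 were not whole numbers.

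Ndufaf7 (chr17:78937136-78948052, plus strand), which methylates a core subunit of complex I during assembly, was higher in oocytes on plates 1, 4 and 6 (log2 ratios 1.37, 1.63 and 1.07) and not on plates 2 and 5 (-0.08 and 0.36), though plate 2 stood at 1.11 with TMM factors. Pooled CPM was 88.3 against 34.05 on plate 1, 204.2 against 65.9 on plate 4 and 156.9 against 74.7 on plate 6. It was found in most oocytes and in fewer somatic cells. With all cells at 10000 counts, 5 of 10, 4 of 8, 13 of 14, 8 of 10 and 9 of 13 oocytes had reads on plates 1, 2, 4, 5 and 6, against 8 of 37, 10 of 31, 3 of 16, 17 of 65 and 5 of 12 somatic cells. The share of cells with reads was higher in oocytes on each plate, also on plate 2, where the pooled level was not (-0.08).

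**Figure D3:**
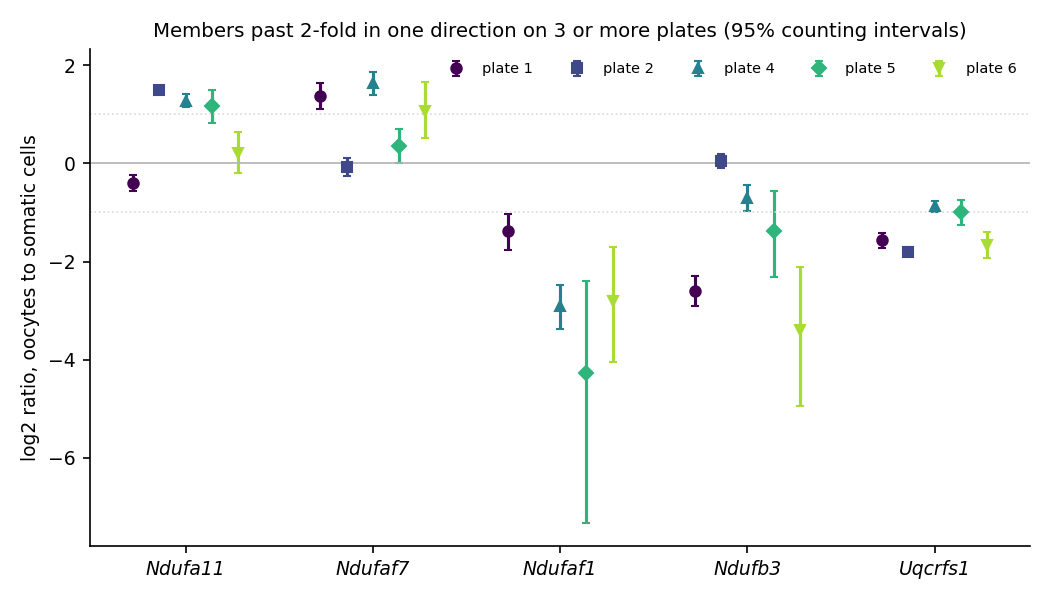
Each symbol is the log2 ratio of pooled CPM in oocytes to somatic cells (vertical axis) of 1 of the 5 members that differed at least 2-fold in the same direction on 3 or more plates (horizontal axis), with symbols by plate, 95% counting intervals as bars and dotted lines at a 2-fold difference. Uqcrfs1 lies between -1.80 and -0.88 on all 5 plates, while Ndufaf1 reaches -4.27 on plate 5 with the widest interval, from -7.33 to -2.40.

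These 5 were chosen for their direction among the 22 members that passed the filter on at least 3 plates, so their values are a description. Beside them, Uqcrb and Atp5g3 had negative log2 ratios on the 3 plates on which each was compared. Uqcrb, a small subunit of complex III, stood at -0.25, -1.46 and -3.11 on plates 2, 4 and 6. Atp5g3, a gene for the c ring of the ATP synthase, stood at -0.45, -1.72 and -2.38 on plates 4, 5 and 6. On plate 6 the 13 oocytes had 13.7 to 327 CPM of Atp5g3 (median 95.1) and the 12 somatic cells 281 to 835 (median 475), and the lowest somatic cell lay below the highest oocyte.

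Cox14, a factor that joins the first steps of complex IV assembly, had positive log2 ratios on all 5 plates, at 0.22, 1.71, 1.15, 0.74 and 0.45. On plate 2 its pooled CPM was 827 in oocytes and 254 in somatic cells, and on plate 6 it was 84.1 and 61.5 with an interval of the log2 ratio from -0.19 to 1.13. In all, 2 of the 22 members were positive on every plate they were compared on and 4 were negative. How many of all genes keep a direction over plates was not counted. On single plates, 21.5% to 25.9% of all genes were higher by 2-fold or more and 37.9% to 59.1% lower.

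Ndufa2, Ndufb7 and Ndufs5, all of them small subunits of complex I, differed at least 2-fold in both directions by pooled CPM. Ndufa2 had 76.96 CPM in oocytes against 184.4 in somatic cells on plate 1 (-1.26) but 758 against 143.5 on plate 2 (2.40) and 234.9 against 83.8 on plate 4 (1.49). Plate 1 pools stages, and within its primordial and its primary follicles Ndufa2 stood at -0.66 and -0.19, less than 2-fold. Ndufb7 stood at 1.303 on plate 4 and at -1.39 and -1.26 on plates 5 and 6. Ndufs5 stood at 1.01 on plate 2 and at -1.06 and -1.21 on plates 5 and 6. The ratios at or above 1 were on plates 2 and 4, and those at or below -1 on plate 1, 5 or 6. On plates 1, 2 and 4 most oocytes had another second plate label than the somatic cells. Oocyte stage differed between plates too. Oocytes were mostly primordial on plate 2, all transitioning on plate 4, and mostly primary or secondary on plates 5 and 6. The part of label or stage was not tested. Ndufa2 stood at 0.11 on plate 5.

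The catalytic subunits were listed mostly on plate 1. There, Atp5b, the beta subunit that makes ATP, had 1207 CPM in oocytes and 2991 in somatic cells (log2 ratio -1.31, -1.36 to -1.26). Atp5c1, the central stalk, was lower as well (287 against 936, -1.71), while Atp5a1, the alpha subunit, stood at 0.27 (2529 against 2101). Of the values above 0, 25.5% of Atp5b and 23.3% of Atp5c1 were not whole numbers, and 0% of Atp5a1. Plate 1 holds mixed stages, and within primordial and within primary follicles the log2 ratios were 1.96 and -0.72 for Atp5a1, -0.31 and -2.21 for Atp5b and -0.75 and -1.98 for Atp5c1. The subunits of the ATP synthase therefore did not keep a common ratio between the types.

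Of the core subunits of complex I on plate 1, Ndufv1, which binds the flavin that accepts electrons from NADH, was higher in oocytes (666 against 312 CPM, 1.10, with reads in 12 of 13 oocytes and 15 of 37 somatic cells). Ndufs7 stood at -0.38, Ndufs3 at -0.48, Ndufs1 at -0.66 and Ndufs8 at -0.82. Within primordial follicles the order of the types was the other way for most of them, with Ndufs7 at 1.05, Ndufs3 at 1.04, Ndufs1 at 2.52 and Ndufs8 at -0.19, whereas within primary follicles they stood at -1.10, -1.35, -1.42 and -0.86. Ndufv1 stood at 2.995 in primordial and at -0.07 in primary follicles. Ndufs8, which carries iron-sulfur clusters near the quinone site, was level on plates 2 and 4 (0.12 and 0.19) and lower on plates 5 and 6 (-1.15 and -1.58).

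Assembly factors had medians of 0.76, 0.23, 1.15, -0.09 and -0.57 on plates 1, 2, 4, 5 and 6, from 11, 4, 7, 6 and 7 genes, and on plates 5 and 6 they include Cox7a2l, a factor that joins complexes III and IV. On plate 1 their median was positive while that of the subunits was -0.82. Ndufaf4 was higher there (185.8 against 43.2 CPM, 2.11, in 13 of 13 oocytes and 12 of 37 somatic cells), and Cox10 and Cox18 stood at 0.83 and 0.76. Ndufaf5 stood at -1.99 on plate 1. Cox15, needed to make heme A, stood at 0.62 on plate 1 and at -1.62 and -1.69 on plates 5 and 6, with reads in 1 of 12 somatic cells on plate 6. Ndufaf2 stood between -0.75 and 1.09 on plates 2, 4 and 6, and Cox17, a copper chaperone, at 1.23 on plate 4, the plate on which it was compared.

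Cox4i2 (chr2:152754173-152765037, plus strand), an isoform of complex IV subunit 4 known from lung, was the 1 member whose cells did not overlap between the types, higher in oocytes on plates 2 and 4. On plate 2, 641 counts fell in 8 of 8 oocytes (25.6 to 552 CPM, median 138.6) and none in 32 somatic cells, which puts oocytes at least 213.2-fold higher, with the somatic cells set to 3 counts over the group. On plate 4, 693 counts fell in 15 of 15 oocytes (20.99 to 1437 CPM, median 113.3) and none in 16 somatic cells, at least 216.8-fold higher. No reads in 32 and in 16 somatic cells allow a share of cells with reads of up to 10.9% and 20.6% (exact binomial). It thus passed the filter on these plates through the oocytes alone. Over all genes, 3.75% and 2.63% had oocytes above somatic cells without overlap on these plates, and 1 member on each plate is near these shares. No member was higher in this way on plates 1, 5 and 6 (0.259%, 0.322% and 4.59% of all genes), and none was lower without overlap on any plate (0%, 0.238%, 1.5%, 0% and 1.58% on plates 1, 2, 4, 5 and 6). At 10000 counts per cell, reads were left in 4 of 8 and 8 of 14 oocytes and in none of the somatic cells. At that depth the cells of the types were thus no longer separate.

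On plate 5, Cox4i2 was not confined to oocytes. The primordial oocyte there had 11 counts (84.3 CPM), 1 of 4 primary oocytes had 2 counts and 1 of 5 secondary oocytes had 1. Among somatic cells, 35 counts fell in 10 of 21 cells of primordial follicles, none in 19 of primary and 1 count in 26 of secondary follicles. The 10 primordial somatic cells with reads carried a median of 0.163% of their counts on oocyte markers (0.0178% to 0.390%) and the 11 without reads 0.0421% (0.0153% to 0.203%). The part of oocyte RNA in these reads was not tested. Cox4i1, the common isoform, was listed with both types on plate 1 only, where Cox4i2 has no values, so the isoforms were not seen side by side.

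**Figure D4:**
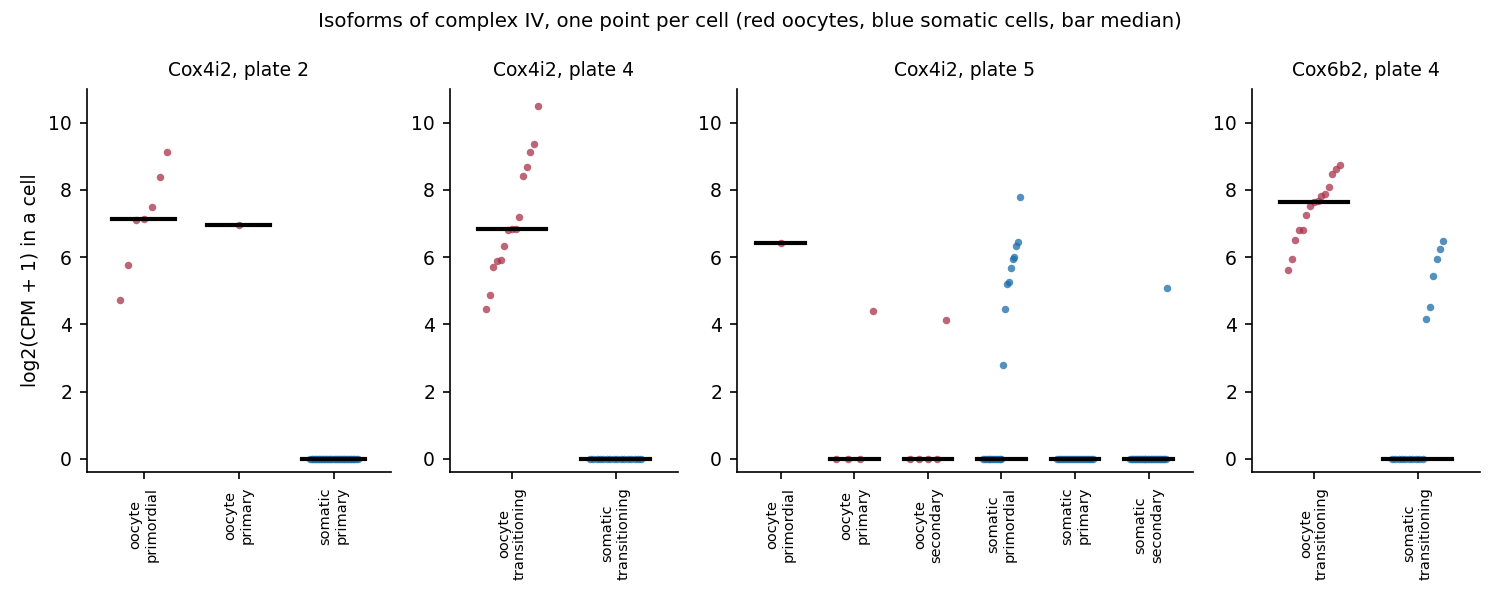
Each point is 1 cell, by type and stage (horizontal axis) and log2 of CPM + 1 (vertical axis), for Cox4i2 on plates 2, 4 and 5 and Cox6b2 on plate 4, with oocytes in red, somatic cells in blue and bars at medians. All 8 oocytes of plate 2 and all 15 of plate 4 hold Cox4i2 reads while no somatic cell there does, and the somatic reads of plate 5 lie mostly in primordial follicles (10 of 21 cells).

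Cox6b2 (chr7:4751792-4753094, minus strand), an isoform of subunit 6B known from testis, was listed on plate 4 only. It had 172.5 CPM in oocytes (15 of 15 cells, 48.4 to 422, median 197.8) and 21.4 in somatic cells (6 of 16 cells, 0 to 88.8), a log2 ratio of 3.01 (2.64 to 3.40). At 10000 counts per cell, 13 of 14 oocytes and 3 of 16 somatic cells had reads. Its paralog Cox6b1 was compared on plate 1, where it was lower in oocytes (-1.34). Cox8c, another isoform known from testis, stayed under the filter, with 46 counts in 7 of 13 oocytes of plate 1 (26 in 1 of 37 somatic cells), 19 counts in 5 of 8 oocytes of plate 2 and 27 in 8 of 15 oocytes of plate 4, and none in the somatic cells of plates 2 and 4.

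The other isoforms were near the limit of the counts. The muscle isoforms Cox6a2, Cox7a1 and Cox8b, Cox7b2 and Ndufa4l2 had at most 12 counts in a type on a plate, and Cox8b had none. Of the common forms, Cox6a1 and Cox8a stood at -0.73, 0.89, 1.0, -0.34 and -0.23, and at -1.43, 0.62, 0.41, -0.56 and -1.41. Cox7a2 and Cox7b were lower in oocytes on plate 1 (-1.25 and -1.08), Cox7a2l stood at 0.02 and -0.57 on plates 5 and 6, Ndufa4 at 0.06 on plate 5, Atp5g1 at -1.09 on plate 1 and Atp5g2 at 0.39 on plate 6. Of the values above 0, 76.3% of Atp5g1 and 100% of Atp5g2 were not whole numbers.

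Per kilobase of exon, the members with the highest pooled level, as a mean over the plates that list them, differed in part between the types. For complex I they were Ndufb11 (667 CPM per kb), Ndufa11 (464) and Ndufa1 (420.2) in oocytes and Ndufc2 (441), Ndufb11 (388) and Ndufa8 (365) in somatic cells. For complex III, Uqcrfs1 had the highest mean in both types, at 178.01 and 441, although in oocytes Uqcrc2 lay above it on plate 1 and Uqcrb and Uqcr10 on plate 2. The next means were those of Uqcr10 and Uqcrc2 in oocytes and of Uqcrb and Uqcr11 in somatic cells. For complex IV, Cox6a1 (723), Cox4i1 (689) and Cox8a (644) led in oocytes and Cox4i1 (976), Cox8a (681) and Cox7a2l (511) in somatic cells. For complex V, Atp5a1 (807), Atp5o (742) and Atp5b (285) led in oocytes and Atp5o (1236), Atp5b (706) and Atp5a1 (670.2) in somatic cells. Of the values above 0, 50% of Atp5o and 25.5% of Atp5b were not whole numbers, and 0% of Atp5a1. As plates were scaled separately and list different genes, these means do not give the order within a plate.

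In somatic cells, members were higher in transitioning than in primordial follicles on plate 1, with a median log2 ratio of 1.06 while that of all genes was -0.60. Of 42 members, 22 were higher and 3 lower, beside 28.5% and 44.8% of all genes. Complex IV stood at 1.89 (9 of 12 higher), complex I at 1.004 and complex V at 0.99. The share of counts on members had a median of 0.972% in 19 primordial cells and 1.47% in 8 transitioning cells, and the ranges overlapped (0.385% to 3.36% and 0.631% to 3.72%). The highest share of 3.72% was that of transitioning cell 3, which was also the deepest of the 8 (360450 counts). Over the alternative ways of processing, the median log2 ratio ranged from 0.42 to 1.25. Other measures moved with this comparison. The oocyte markers had a median of 0.0612% in primordial and 0.00386% in transitioning cells, the stroma markers exceeded the granulosa markers in 3 of 19 and 0 of 8 cells, and the deposited fractions had medians of 31.7% and 17.3% for duplicate reads and 6.24% and 12.9% for mitochondrial reads. Their part in the result was not tested. In the metadata 1 of the 8 transitioning and 1 of the 5 primary somatic cells of plate 1 carry the code of another stage, and 3 of its 5 primordial oocytes another time code. Without these cells the member medians of somatic cells on plate 1 were 1.17 for transitioning against primordial, -1.36 for primary against transitioning, 0.00435 for primary against primordial and 0.0408 for secondary against primary.

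Single genes of this comparison rested on few cells. Cox5a had 1546 CPM in transitioning and 121.2 in primordial cells (3.67), yet its median cell was at 6.44 and at 0. Ndufaf5 had reads in 3 of 8 transitioning cells and none in 19 primordial cells, and all Cox8c counts fell in 1 cell. Ndufaf7 (-4.68), Atp5sl (-3.28) and Cox19 (-1.63) were lowest, with reads in 1, 2 and 1 of 8 transitioning cells. Cox4i1, found in all 8 transitioning and 16 of 19 primordial cells, had 3162 and 1099 CPM (1.53), with median cells at 1772 and 778.

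From transitioning to primary follicles on plate 1 the medians went the other way, at -0.91 for the members and 0.40 for all genes, with 9 members higher and 19 lower of 42 (41.9% and 30.6% of all genes). Without the deepest cell of each group the member median was -0.03. Complex IV was lowest (-1.79, 9 of 12 lower) with Cox7b at 781 against 65 CPM (-3.59), and Uqcrc2, a core subunit of complex III, highest among genes with reads in most cells (2.69, 131.5 against 846 CPM, 5 of 5 primary and 6 of 8 transitioning cells). Ndufaf4 (-4.91) and Cox8c were among the lowest and Cox15 and Ndufaf1 among the highest, each with reads in at most 3 cells of a group. Atp5a1 (1.88) and Atp5b (1.03) were higher. Both comparisons share the 8 transitioning cells.

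Primary and primordial somatic cells could be compared on 2 plates. On plate 1 (5 and 19 cells) the member median was 0.18 and that of all genes -0.10, with 11 members higher and 5 lower of 43 (32.3% and 36.7% of all genes). On plate 5 (19 and 21 cells) it was 1.06 against 0.42, with 17 higher and 1 lower of 32 (34.5% and 23.2%). By the scaling factors of edgeR (TMM), the median on plate 5 was 0.57 and 6 members were higher. Over the alternative ways of processing, this median ranged from 0.36 to 1.95. Primordial cells 29, 39 and 40, the deepest of that group on plate 5, had 0.058%, 0.024% and 0.018% of their counts on members. The other primordial cells there had 0.185% to 0.823% and the primary cells 0.347% to 1.10%, so the ranges overlapped. The part of these deep cells in the pooled ratio was not tested.

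On plate 5, Ndufaf7 (3.795), Ndufb3 (3.05) and Ndufs8 (2.16) were highest in primary cells. Ndufs8 had 561 CPM in primary cells (0 to 1803, median 270.5) and 125.5 in primordial cells (0 to 499, median 144.5). Ndufb3 had 70.8 CPM in 12 of 19 primary cells and 8.58 in 7 of 21 primordial cells, whereas Ndufaf7 had reads in 5 cells of each group. Uqcrfs1 (1.39, 522 against 199.6 CPM), Cox5a (1.34) and Atp5g3 (1.51) were higher too. Cox4i2 was lowest, at -2.83 or below with the primary cells set to 3 counts, and Ndufa11 and Ndufa4 followed at -0.20 and -0.18. The oocyte markers had a median of 0.113% in the primordial cells and 0 in the primary cells, and the granulosa markers of 0.436% and 2.18%. The part of that difference in these values was not tested. On plate 1, Atp5a1 (2.31), Atp5b (1.06), Uqcrc2 (2.07) and Ndufs1 (3.52) were higher in primary cells, and Cox19, Ndufaf7 and Ndufaf4 were lowest, with 1, 2 and 4 counts in primary cells. Ndufaf1 and Ndufaf5 had reads in 2 of 5 primary cells and in none of 19 primordial cells. On plate 1, the median primordial cell had 63070 counts and the median primary cell 361900.

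Between primary and secondary follicles, members of somatic cells stayed near 0. The median was -0.17 on plate 1 (5 higher and 3 lower of 43, beside 29.5% and 27.1% of all genes) and -0.03 on plate 5 (3 higher and 2 lower of 32, beside 24% and 21%). On plate 5, Ndufa13 (1.70), Cox14 (1.43) and Atp5j (1.17) were higher in secondary cells, and Ndufaf6 (-2.36) and Cox15 (-1.55), in few cells each, were lower, with Ndufs8 at -0.97. On plate 1, Uqcrc2 (-1.01) and Atp5l (-1.34) were lower, and Cox19, Ndufaf7 and Ndufaf4 were higher with reads in 3 of 5 secondary cells each, while Ndufaf5 stood at -2.49. The shares of member calls were below those of all genes in both directions on both plates.

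**Figure D5:**
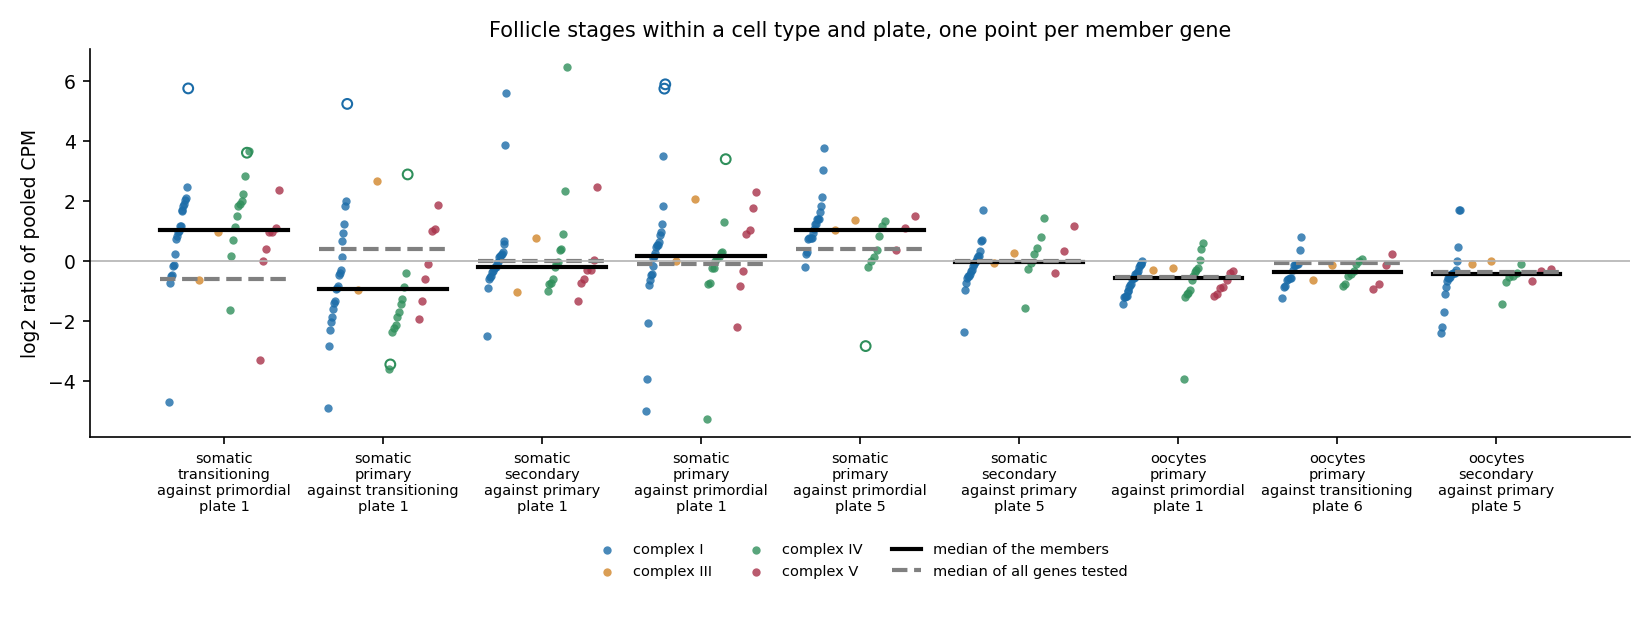
Each point is 1 member and its height is the log2 ratio of pooled CPM between the later and the earlier follicle stage within a cell type and plate; open circles are bounds where 1 group had no counts, solid bars member medians and dashed bars medians of all genes. In somatic cells the member median is 1.06 from primordial to transitioning on plate 1 and from primordial to primary on plate 5, and in oocytes all 3 medians lie between -0.57 and -0.37. Over alternative ways of processing, these somatic medians ranged from 0.42 to 1.25 and from 0.36 to 1.95.

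In oocytes, members were lower at the later stage in all 3 comparisons that plates allowed, by less than 2-fold. Primary against primordial oocytes on plate 1 (7 and 5 cells) gave a median of -0.57, beside -0.51 for all genes, with 0 members higher and 11 lower of 45 (11% and 29% of all genes). Primary against transitioning oocytes on plate 6 (8 and 3 cells) gave -0.37 beside -0.05, with 0 higher and 1 lower of 28 (9.93% and 14.1%). Secondary against primary oocytes on plate 5 (5 and 4 cells) gave -0.43 beside -0.35, with 2 higher and 5 lower of 29 (9.88% and 18.9%). On plates 1 and 5 the members lay close to all genes, and with TMM factors their medians were -0.0605 on plate 1, -0.23 on plate 6 and -0.0484 on plate 5. No member of the first pair of comparisons had oocytes that did not overlap, beside 0.0413% of all genes higher and 0.103% lower on plate 1 and 0.736% and 0.535% on plate 6.

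The 5 primordial oocytes of plate 1 had 1.16% to 1.59% of counts on members and the 7 primary oocytes 0.726% to 1.599%. Without the deepest cell of each group the median log2 ratio was 0.15 in place of -0.57. Cox8a stood at -1.20 and Cox8c at -3.92, the latter with 43 counts in 4 of 5 primordial and 2 in 2 of 7 primary oocytes. Cox10, which makes heme O for complex IV, was highest (0.62, 0.42 to 0.83), before Cox7a2 (0.41) and Cox5a (0.03).

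On plate 6, all 3 transitioning oocytes lay at 0.432%, 0.501% and 0.695% of counts on members, and the 8 primary oocytes at 0.319% to 0.660% (median 0.402%). Ndufa12 (-1.21), Atp5g3 (-0.93) and Ndufa13 (-0.86) were lowest and Ndufs4 (0.81), Ndufb5 (0.37) and Atp5g2 (0.24) highest, and of these 6 only the interval of Atp5g3 (-1.60 to -0.22) kept clear of 0. Leaving out the transitioning oocyte with the highest share put the member median at 0.03.

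On plate 5, the 4 primary oocytes had 0.345% to 0.467% of counts on members and the 5 secondary oocytes 0.1398% to 0.419%. Ndufa11 had 152.4, 208.6, 213.2 and 335 CPM in the primary and 27.1, 38.8, 94.5, 148.6 and 149.7 in the secondary oocytes, so every primary oocyte lay above every secondary one. Ndufa12 was separate as well (-2.37), on 12.6 and 2.23 counts. These 2 of 29 members stand beside 5.44% of all genes that did not overlap and were lower, and none of the members stands beside the 0.928% that were higher. Ndufa1 (-2.20) and Ndufb7 (-1.69) were lowest next to Ndufa12, and Ndufb3, Ndufa13 (both 1.70 on 6 and 2 counts) and Ndufb11 (0.48) highest.

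The other genes of the pathway were read from fixed lists. The 13 mitochondrially encoded subunits had lower medians in oocytes on every plate, at -0.73, -1.98, -1.99, -1.58 and -3.09 on plates 1, 2, 4, 5 and 6, with 3 of 11, 10 of 13, 12 of 12, 9 of 10 and 11 of 11 lower and none higher. Over all genes, 37.9%, 59.1%, 53.7%, 48% and 51.7% were lower and the medians were -0.33, -2.0, -1.31, -0.84 and -1.15, so that on plate 2 the mitochondrial median lay close to that of all genes. In oocyte stages the mitochondrial medians were -1.28 for primary against primordial on plate 1 (8 of 11 lower, 29% of all genes), 0.70 for primary against transitioning on plate 6 (3 of 8 higher, 9.93% of all genes) and 1.41 for secondary against primary on plate 5 (8 of 9 higher, 9.88% of all genes), beside nuclear medians of -0.57, -0.37 and -0.43. In somatic cells of plate 1 they were 0.89 for transitioning against primordial (4 of 11 higher, 28.5% of all genes) and -1.62 for primary against transitioning (11 of 12 lower, 30.6%), with the sign of the nuclear medians. Primary against primordial somatic cells stood at -0.87 on plate 1 and 0.56 on plate 5, and secondary against primary at 0.0655 and -0.0921.

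Complex II, which is all nuclear and lies outside the rule, taken with its assembly factors, kept medians between -0.34 and 0.11 over the 5 plates. Glycolysis enzymes had medians below 0 in oocytes, at -1.13 (4 of 8 lower), -5.15 (3 of 3), -4.33 (2 of 2), -1.43 (2 of 3) and -3.69 (4 of 4), from a list of 16. Over all genes 37.9%, 59.1%, 53.7%, 48% and 51.7% were lower. On plates 1 and 5, 2 and 1 of these enzymes had positive ratios. On plates 2, 4, 5 and 6, 2, 1, 1 and 1 of them were under 10 CPM in 1 of the types. Pyruvate and TCA cycle enzymes had 14 genes on plate 1, where their median was 0.10 (2 higher and 2 lower), and at most 3 on the other plates (-0.50, 0.27 and -0.31 on plates 4, 5 and 6). Electron carriers had medians of -0.79, 1.75, -0.47, -1.35 and -1.11, from 1 to 4 genes a plate. Assembly factors with other names stood at -0.56, -0.74, 0.44, 0.94 and -0.61, and regulators of mitochondrial genes at 0.78, 0.89, 3.70, 2.20 and -0.61, from 1 to 4 genes.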

How the data were processed

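Single cells were profiled by SMART-Seq2. The authors aligned the reads to GRCm38 with public scripts on Terra, removed cells with few genes or a mixed marker score, and worked in Seurat v4 per the labels; the counter is not given in the sources used here. The deposited table holds expected counts (estimated, not normalized), and 17.2% of those above 0 were not whole. The cell metadata deposited by the authors give plates, stages, and fractions of duplicate and mitochondrial reads. Sample titles set the stages; 5 cells of plate 1 carry other stage or time codes. 27 rows with dates for names were left out (0.0743% of counts).

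Counts were used unrounded and summed over the cells of a group on a plate, and divided by the total of that group (CPM). No test was made. Intervals of levels use the formula of exact Poisson intervals and those of log2 ratios that of the exact binomial split, both applied to the unrounded sums. Genes needed a mean CPM of 10. Groups had at least 3 cells. Thinned cells had 10000 counts. Where a group had no counts, 3 counts over the group stood in. The calculation was tested on simulated data.

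The members, lists and rules were chosen with earlier results of these data known. Named genes were the 3 highest members of each complex per kb and type, those 2-fold in the same direction on 3 plates or more, paralogs, the 3 highest and lowest of each stage comparison, assembly factors passing on 3 plates, and those 2-fold both ways; further genes were chosen after their values were seen. A gene that these rules name is not reported here. Exon lengths are those of GENCODE on GRCm38, matched by symbol for 96 members. Promoters are from RefSeq (GRCm38.p6). Alternatives were TMM (edgeR 4.0.16) and median-of-ratios factors (DESeq2 1.42.0), other totals, other minimums, thinned cells, mean CPM, cells left out, and subsets of members. Tools were Python 3.11.15, numpy 2.4.6, pandas 2.3.3, scipy 1.17.1, matplotlib 3.10.9 and R 4.3.3.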

Additional observations from a re-analysis of the deposited data

Results flagged for a closer look

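In groups of 4 to 10 cells, the share of counts on the members and on each complex was searched for cells far from the rest of their group, by the gap to the next cell over the range of the group (Dixon's 95% limit). Of 45 groups and shares, 9 had such a cell, where chance gives about 1 in 20.

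On plate 1, primary oocyte 1 had 0.726% of its counts on the members and the other 6 had 1.299% to 1.599%. It was the deepest cell of the series (801258 counts) and carried the second plate label of the somatic cells. Primordial oocyte 5 had 0.395% on complex I, below 0.519% to 0.564% in the other 4, with 8352 counts in all. Among the 8 transitioning somatic cells of plate 1, cell 3 was highest in complex I (1.22%, others 0.120% to 0.552%) and in complex IV (1.62%, others 0.0386% to 0.781%), and cell 4 in complex III (0.251%, others up to 0.0982%).

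On plate 2, primordial oocyte 6 had 3.36% on complex I, above 0.1146% to 1.395% in the other 6. On plate 6, primary oocyte 14 was the highest of 8 in complex IV (0.312%, others 0.128% to 0.200%), in complex V (0.101%, others 0.0491% to 0.0726%) and over all members (0.660%, others 0.319% to 0.455%). Shares of a cell add up to the same total, so these flags are not independent of each other.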

How the results depend on the processing

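Of the alternatives for the 14 median log2 ratios, all but 16 stayed within 1 SD of single cells, 11 moved further and 5 reversed with both values at least 0.1 from 0. In all, 11 had the opposite sign, among them 2 each for secondary against primary somatic cells on plates 1 and 5 (up to 0.0408 and 0.0309). For oocytes against somatic cells, plate 1 reversed with primordial follicles alone (0.36) and moved with cells thinned (0.0546). Plate 4 reversed with oocytes of the same second plate label (-0.23, chosen after seeing the data). Plate 6 reversed with TMM (0.15) and median-of-ratios factors (0.30) and moved with subunits alone (-1.21). The lowest alternative for plate 2 was 0.125. Plate 2 moved to 1.77 with TMM and 1.95 with median-of-ratios factors, and plate 4 to 1.94 with the latter. These 2 sets of factors shift all log2 ratios of oocytes to somatic cells by 0.24 and 0.34 on plate 1, 1.19 and 1.37 on plate 2, 0.76 and 0.97 on plate 4, 0.14 and 0.31 on plate 5, and 0.82 and 0.97 on plate 6, and those of primary to primordial somatic cells on plate 5 by -0.49 and -0.49, so the sign of a median near 0 is relative to the total. Primary against primordial oocytes on plate 1 reversed without the deepest cells (0.15) and moved with mean CPM (-0.19), TMM (-0.0605), median-of-ratios (-0.0762) and totals over genes on every plate (-1.13). Primary against transitioning somatic cells moved without the deepest cells (-0.0262).

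With each cell of a small group left out, the medians ranged from -0.70 to -0.46 for the plate 1 oocytes, -0.60 to 0.034 for plate 6 (the latter without transitioning oocyte 17), -0.70 to -0.33 for plate 5, and in somatic cells of plate 1 from 0.00435 to 0.55 (primary against primordial), -1.25 to -0.75 (primary against transitioning) and -0.32 to 0.04 (secondary against primary). For single genes, Ndufaf1 on plate 1 reversed with mean CPM (0.60), thinned cells (0.0802) and primordial follicles alone (4.09 or above, with the somatic cells set to 3 counts). Of the alternatives for the 5 genes on each plate, 13 had the opposite sign. Besides these 3 they were for ratios under 1 in size, of Ndufb3 on plates 2 and 4, Ndufaf7 on plates 2 and 5, Ndufa11 on plate 1 and Uqcrfs1 on plate 4. Counts of members higher or lower often differed over 1.5 times. Higher counts on plates 1, 2, 4, 5 and 6 ranged from 1 to 19 (given as 4), 3 to 20 (8), 3 to 23 (15), 1 to 3 (1) and 0 to 6 (1), and lower counts from 5 to 25 (17), 0 to 3 (1), 0 to 8 (3), 3 to 18 (10) and 5 to 16 (15). In somatic stages, higher and lower counts ranged from 13 to 26 (22) and 0 to 9 (3) for transitioning against primordial, 6 to 11 (9) and 9 to 26 (19) for primary against transitioning, 0 to 8 (5) and 1 to 8 (3) for secondary against primary on plate 1 and 0 to 3 (3) and 0 to 3 (2) on plate 5, and 8 to 18 (11) and 1 to 9 (5) for primary against primordial on plate 1 and 6 to 26 (17) and 0 to 1 (1) on plate 5. In oocyte stages they ranged from 0 to 3 (0) and 1 to 26 (11) on plate 1, 0 to 1 (0) and 0 to 7 (1) on plate 6, and 0 to 5 (2) and 2 to 9 (5) on plate 5. The causes were not tested. No paired analysis was possible because replicate numbers only number cells within a group and no test was run. Same-stage values on plates 2 and 6, and a same-label value on plate 2, could not be given for lack of cells. Depth limits low members most, since the shallowest cell held 5150.2 counts.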
